A study of Mus musculus with 48 samples.

Results

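The genes described here act on the poly(A) tail of mRNAs: the nucleases Parn, Pan2 and Pan3, the BTG/Tob proteins Tob1, Tob2, Btg1 and Btg2, the CPE-binding proteins Cpeb2 and Cpeb4, and Nocturnin (Noct, also called Ccrn4l). These 10 genes were chosen by name, beside the 12423 genes of the whole series with values in both assays. Values of 9 of the 10 were analysed, and all 9 passed the filter on low values that left 11863 genes to test. Noct was not analysed here. The kidneys came from male C57BL/6JRj mice of 11 to 12 weeks, kept in a cycle of 12 h light and 12 h dark, where Zeitgeber time ZT00 is lights-on and ZT12 lights-off. At each of 12 timepoints from ZT00 to ZT22, spaced by 2 h, there were 2 pools, and each pool combined the kidney lysates of 2 mice. Every pool gave 1 RNA-seq library, which measures transcript abundance, and 1 RPF-seq library, which measures the mRNA fragments protected by ribosomes. The labels give no treatment and 1 strain for all mice, so as far as they say the groups differ by time of day, and the replicates are pools and not single animals.

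Most mRNAs carry a poly(A) tail that binds cytoplasmic poly(A)-binding proteins and favours translation, and the loss of this tail usually starts the decay of the message. PAN2-PAN3 trims long tails, the CCR4-NOT complex removes most of what is left, and PARN is a separate poly(A)-specific nuclease. BTG/Tob proteins bind the CAF1 nucleases of CCR4-NOT, and Tob proteins also bind the poly(A)-binding protein. CPEB proteins bind U-rich elements of target mRNAs and direct the shortening or lengthening of their tails. Nocturnin, first described as a rhythmic deadenylase and later found to act on NADPH, has made this pathway one of interest for circadian biology.

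The deposited values are RPKM, read numbers scaled by the length of the coding sequence and by library size, so that levels of different genes can be set side by side. Read numbers recovered from the steps between these values put between 57 reads (Btg2) and 4454 reads (Cpeb4) behind a gene's value in an RNA-seq library, and between 91 (Btg2) and 5876 (Tob1) in an RPF-seq library. Relative depth ran from 0.598 to 2.04 in RNA-seq and from 0.694 to 1.54 in RPF-seq, and light-phase libraries were the deeper ones (median 1.14 against 0.812 in RNA-seq and 1.15 against 0.932 in RPF-seq). The RPF-seq libraries of ZT04 pool 2 and ZT16 pool 2 stood apart, with a mean Spearman correlation to the other RPF-seq libraries of 0.9816 and 0.9819, the next lowest being 0.9875. Calls made below on footprints and TE by a 24-h fit are given also without them. Single peak times are not, and tests of other shapes were not repeated without these libraries. All 10 kidney markers were listed in both assays. Of 5 adipocyte markers, 3 were listed in RNA-seq and 4 in RPF-seq, with Lep in neither, and their summed RNA level ranged from 7.56 to 44.9 RPKM in light-phase libraries and from 2.17 to 18.4 RPKM in dark-phase libraries. Both adipocyte markers that could be tested, Adipoq and Cfd, had RNA peaks at ZT4.0 and ZT5.0. The summed RNA level of the 4 listed blood markers (of 5, Hbb-bs not listed) was between 54.5 and 286 RPKM in the light and between 56.7 and 373 RPKM in the dark. All 5 liver markers were listed in both assays, at a summed RNA level of 136 to 413 RPKM in the light and 134 to 473 RPKM in the dark. Of the 5 immune markers, 2 were listed in RNA-seq, at a summed 4.72 to 9.81 RPKM over all libraries. None of the 5 adrenal markers was listed in either assay. In whole kidney, fewer cells of a type and less RNA per cell cannot be told apart.

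The levels of these genes spanned more than an order of magnitude. In RNA-seq, Tob1 was the most abundant at 94.5 ± 13.2 RPKM (SD, n = 24 libraries, also for the values that follow), then Cpeb4 at 67.4 ± 8.35, Btg1 at 37.9 ± 8.88, Tob2 at 26.9 ± 5.92, Pan3 at 21.1 ± 1.59, Btg2 at 12.5 ± 2.05, Cpeb2 at 12.1 ± 1.25, Parn at 9.40 ± 1.74 and Pan2 at 4.67 ± 0.445. The SD here includes the change over the day. In RPF-seq the order was Tob1 (156 ± 24.3 RPKM), Btg1 (48.1 ± 7.07), Cpeb4 (35.4 ± 4.02), Tob2 (35.2 ± 8.0), Parn (13.1 ± 2.05), Btg2 (13.1 ± 2.29), Cpeb2 (7.31 ± 0.752), Pan3 (7.04 ± 0.831) and Pan2 (3.06 ± 0.344). Neighbours in these orders were compared within the 24 pools by a two-sided permutation test that reverses the signs of the paired log2 differences, adjusted over all 16 pairs. In RNA-seq 7 of 8 neighbouring pairs differed, and the exception was Btg2 and Cpeb2 (mean log2 difference 0.04 ± 0.27 SD, n = 24 pools, adjusted p = 0.53, permutation test). In RPF-seq 5 of 8 pairs differed. Cpeb4 and Tob2 (mean log2 difference 0.04 ± 0.40 SD, adjusted p = 0.71, permutation test), Parn and Btg2 (0.01 ± 0.37, adjusted p = 0.91, permutation test) and Cpeb2 and Pan3 (0.05 ± 0.21, adjusted p = 0.28, permutation test) were not separated beyond their spread.

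**Figure D1:**
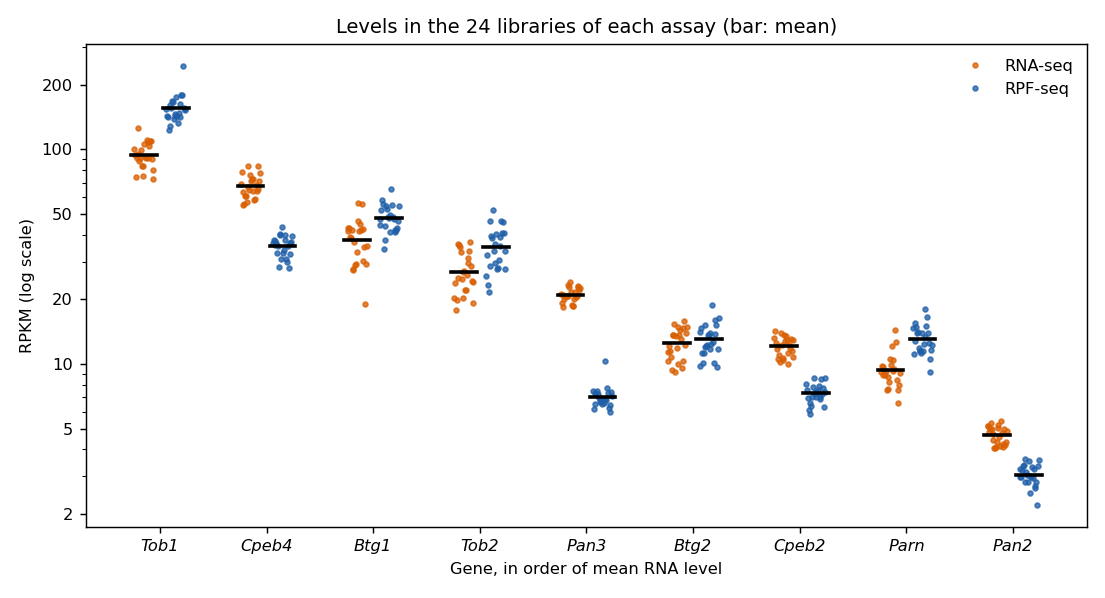
RPKM of each gene in the 24 RNA-seq and 24 RPF-seq libraries on a log scale, genes in order of mean RNA level, with the mean as a bar. Footprints lay above RNA for Tob1, Btg1, Tob2 and Parn and below it for Cpeb4, Pan3, Cpeb2 and Pan2, most of all for Pan3 (21.1 RPKM in RNA-seq, 7.04 in RPF-seq).

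Translation efficiency (TE), the footprint level divided by the RNA level of the same pool, ranged 4.90-fold over these genes. Pan3, the subunit that brings PAN2 to poly(A)-binding protein, had a geometric mean TE of 0.336, at percentile 7.04 of all tested genes. The catalytic subunit Pan2 had a TE of 0.661 (percentile 28.3). Both CPEB genes were also low, Cpeb4 at 0.527 (percentile 18.5) and Cpeb2 at 0.608 (percentile 24.3), beside a median TE of 0.956 over all tested genes. Tob1 had the highest TE of the group at 1.65 (percentile 88.4), and Parn at 1.39, Tob2 at 1.31 and Btg1 at 1.29 lay between percentiles 73.0 and 78.1. Btg2, at 1.04, was close to the median gene. The RNA and RPF values are relative to their own libraries, so a TE of 1 has no absolute meaning.

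A 24-h cosine was fitted to every gene on log2(RPKM + 0.1) with limma, and a level was called rhythmic at an FDR under 0.05 and a fitted peak-to-trough fold of at least 1.5. By this rule 2 of the 9 genes were rhythmic in RNA-seq, Tob2 and Btg1, where 10.2% of all tested genes were called. In RPF-seq it was 1 of 9, Tob2, where the share of all genes was 7.58%. A 24-h component at FDR under 0.05 of any size was found in the RNA of 7 of 9 genes (48.6% of all genes), the exceptions being Btg2 and Cpeb2, and in the footprints of 3 of 9 (30.9% of all genes), namely Tob2, Parn and Tob1. The TE of 3 of 9 genes, Tob1, Tob2 and Pan3, had a 24-h component at FDR under 0.05, a test passed by 17.1% of all genes. The share among 9 genes was not tested against that of all genes. The median fitted log2 peak-to-trough difference over the 9 genes was 0.29 for RNA levels, 0.19 for footprint levels and 0.23 for TE, beside 0.27, 0.24 and 0.25 over all tested genes. With the 12 timepoints as a factor, which allows any shape, 4 of 9 genes differed in RNA-seq (31.0% of all genes), Cpeb4, Pan3, Btg1 and Tob2, and 1 of 9 in RPF-seq (12.8% of all genes), Tob2. Without the 2 libraries that stood apart, 1 gene was rhythmic in RPF-seq (Tob2), 2 had a footprint component (Tob2 and Parn) and the same 3 had a TE component. The 24-h fit to 1 series of pools alone leaves 1 pool at each timepoint. Fewer RNA, footprint and TE components passed there, among these genes and over all tested genes.

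**Figure D2:**
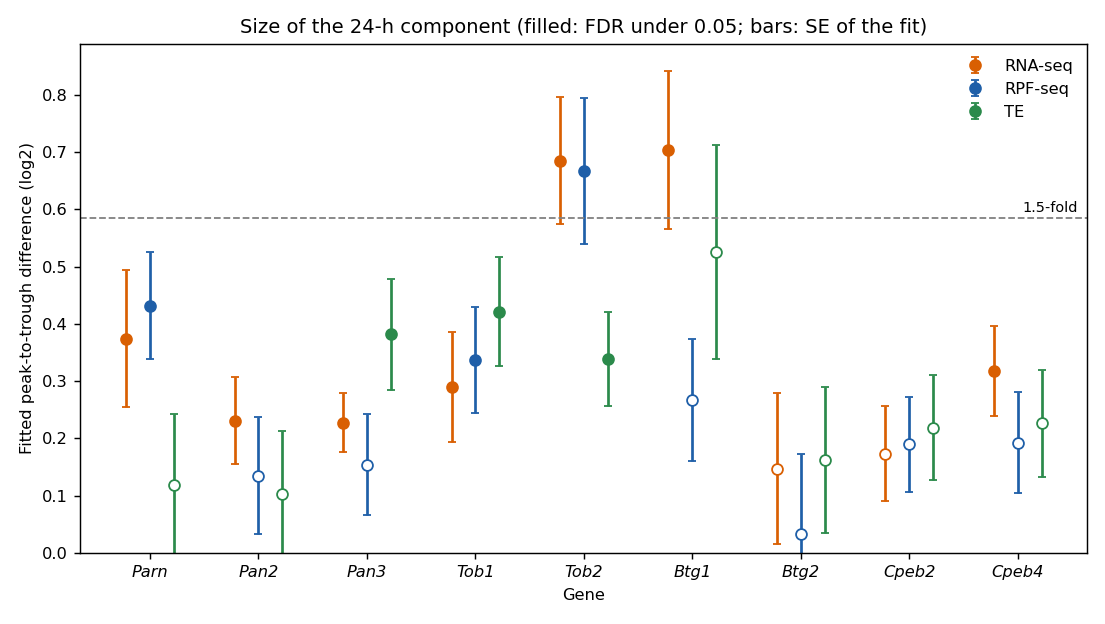
Fitted log2 peak-to-trough difference of RNA-seq, RPF-seq and TE for each gene with the SE of the fit (bars cut at 0), filled where the FDR was under 0.05. Only Tob2 and Btg1 in RNA-seq and Tob2 in RPF-seq lie above the dashed line at 1.5-fold, while TE points are filled for Pan3, Tob1 and Tob2.

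Tob2, an antiproliferative protein that links CCR4-NOT to tails bound by poly(A)-binding protein, had the largest RPF rhythm of the group, and its RNA and footprints both rose around the day-to-night transition. Its gene lies on chromosome 15 (GRCm38, chr15:81848272-81858796, minus strand). In RNA-seq, the 2 pools read 20.4 and 27.1 RPKM at ZT00, 24 and 22.1 at ZT02, 18 and 22.3 at ZT04, 19.9 and 26 at ZT06, 25.2 and 29.7 at ZT08, 36.2 and 31.4 at ZT10, 35.9 and 33.7 at ZT12, 35 and 37.2 at ZT14, 33.2 and 28.6 at ZT16, 25 and 24.4 at ZT18, 20.2 and 19.2 at ZT20, and 26.8 and 24.0 at ZT22. Every pool from ZT10 to ZT14 stood above every pool of the other timepoints except ZT16 pool 1, which exceeded the lowest of them. The fit gave a 1.61-fold rhythm (log2 difference 0.69 ± 0.11 SE, FDR = 9.1e-05) with a peak at ZT12.7 ± 0.618 h (SE). In RPF-seq the 24 libraries ranged from 21.7 to 52.4 RPKM with a median of 34.6, and the highest timepoint was ZT16, with 52.4 and 46.1 RPKM, against 23.5 and 28.1 RPKM at ZT04, the lowest. The footprint rhythm was 1.59-fold (log2 difference 0.67 ± 0.13 SE, FDR = 0.0012) and peaked at ZT14.6 ± 0.732 h (SE), 1.93 ± 0.958 h after the RNA, a gap of 0.8 h with a 12-h term in the fit. The summed level of the listed blood markers also had its highest timepoint mean at ZT16, in RNA-seq (350 RPKM, lowest 63.7 at ZT04) and in RPF-seq (193 RPKM, lowest 34.8 at ZT20), and their part in the ZT16 values of the genes described here was not tested. Without the 2 libraries that stood apart the Tob2 footprint rhythm was 1.57-fold, with the RNA and footprint peaks 1.89 h apart. With the pools of replicate 2 alone, 1 pool at each timepoint, it was 1.47-fold and met neither the FDR limit nor the 1.5-fold limit. Aqp2, the collecting duct water channel among the kidney markers, had an RNA rhythm of 1.72-fold with a peak at ZT14.8, and its part in the Tob2 values was not tested.

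The TE of Tob2 changed by 1.26-fold over the day with a fitted peak at ZT19.8 ± 0.926 h (SE) and an FDR of 0.020. Without the 2 libraries that stood apart it was 1.25-fold (FDR = 0.03). It did not pass with a 12-h term in the fit (1.29-fold, FDR = 0.0648) or with either series of pools alone (1.29-fold, FDR = 0.288, and 1.24-fold, FDR = 0.253). Its values did not follow a smooth curve: both pools read 1.11 and 1.10 at ZT14 and then 1.58 and 1.61 at ZT16, where RNA had begun to fall while footprints were at their highest. From ZT16 to ZT22 all 8 pools read between 1.35 and 1.67, and from ZT06 to ZT14 the 10 pools read between 1.09 and 1.38.

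Tob1, the closest relative of Tob2, was the most abundant gene of the group and moved less. Its RNA ranged from 74.4 to 126 RPKM in the 12 light-phase libraries (median 94.8) and from 72.8 to 110 RPKM in the 12 dark-phase libraries (median 89.1), so the phases overlapped almost fully. The fitted RNA fold was 1.22 (log2 difference 0.29 ± 0.10 SE, FDR = 0.045) with a peak at ZT10.0. This RNA component did not pass in the fit with no variance trend (FDR = 0.0571). The joint test of the 24-h and 12-h terms did not pass either (FDR = 0.107). Footprints ranged from 123 to 176 RPKM in the light (median 143) and from 139 to 245 RPKM in the dark (median 156). Their 1.26-fold component (log2 difference 0.34 ± 0.09 SE, FDR = 0.021) peaked at ZT15.6, 5.61 ± 1.65 h after the RNA. This gap was 5.43 h without the 2 libraries that stood apart and 1.9 h with a 12-h term in the fit. The highest value, 245 RPKM, came from ZT16 pool 2, 1 of the 2 libraries that stood apart, beside 167 RPKM in ZT16 pool 1. Without these 2 libraries the footprint fold was 1.17 and did not pass the test (FDR = 0.0674). The TE of Tob1 kept its call without them. In all 24 pools its fold was 1.34 (log2 difference 0.42 ± 0.09 SE, FDR = 0.013) with a peak at ZT18.5, and without them it was 1.3 (FDR = 0.0303). Light-phase pools had TE values from 1.28 to 1.90 (median 1.49), and dark-phase pools from 1.65 to 2.23 (median 1.77), so that the ranges overlapped.

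Btg1, which binds the CAF1 nucleases of CCR4-NOT and slows proliferation, had the largest fitted RNA fold of the group, within the error of that of Tob2 and with a peak in the light phase. Its RNA level ranged from 38.6 to 56.1 RPKM in the 12 light-phase libraries (median 42.6) and from 19.1 to 42.5 RPKM in the 12 dark-phase libraries (median 29.7). The dark-phase libraries lay below all light-phase libraries with the exception of ZT12 pool 2 (42.5 RPKM), whose sister pool read 27.4 RPKM. The fit gave a 1.63-fold rhythm (log2 difference 0.70 ± 0.14 SE, FDR = 7.3e-04) and a peak at ZT5.1 ± 0.748 h (SE). The highest timepoint means were 49.1 RPKM at ZT10 and 48.9 RPKM at ZT02, and the lowest was 24.0 RPKM at ZT18. With the pools of replicate 1 alone the fold was 1.46, under the 1.5-fold limit (FDR = 0.016). Footprints ranged from 34.3 to 65.7 RPKM in the light (median 49.0) and from 37.9 to 54.7 RPKM in the dark (median 45.2). Their 1.20-fold component did not pass the test (FDR = 0.13). The TE of Btg1 was lowest at ZT10 (0.810 and 0.844) and highest at ZT18 (1.83 and 2.27), and the fitted 1.44-fold TE component (upper 95% bound 1.86) did not pass the test over all genes either (FDR = 0.11). It was 1.58-fold without the 2 libraries that stood apart (FDR = 0.0529). The joint test of the 24-h and 12-h terms passed for footprints (1.45-fold, FDR = 0.0118) and for TE (1.89-fold, FDR = 0.0157).

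A caution applies to the Btg1 values. Of the 486 28-base words in its coding sequence, 198 (40.7%) also occur in the transcripts of other loci, namely the pseudogenes Btg1-ps1 and Btg1-ps2 and the gene model Gm14519, and how reads with several matches were counted is not given in the sources used here. The same share was 1.51% for Tob1, 0.0658% for Cpeb2 and 0.0926% for Cpeb4 (2 words that these 2 genes have in common), and 0 for the other 5 genes. The adipocyte markers Adipoq and Cfd peaked near the time of the Btg1 RNA, with RNA folds of 3.58 and 4.87. The part of adipocytes in the Btg1 values was not tested.

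Btg2, the immediate early relative of Btg1, showed no 24-h component in either assay. The RNA values ran from 9.20 to 15.9 RPKM (median 12.7) with a fitted fold of 1.11 (upper 95% bound 1.33, FDR = 0.62). Its highest RNA timepoint was ZT16, with 15.3 and 15.9 RPKM, and its lowest ZT10, with 9.43 and 9.62 RPKM, and the test over 12 timepoints missed the threshold (FDR = 0.063) but passed with the replicate number as a block (FDR = 0.0329). The blood markers were highest at ZT16 as well. The footprints ran from 9.66 to 18.9 RPKM (median 12.6) with a fitted fold of 1.02 (upper 95% bound 1.24, FDR = 0.98). The highest footprint value, 18.9 RPKM at ZT06 pool 2, stood beside 11.3 RPKM in the other pool. Btg2 had the fewest reads of the 9 genes.

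The promoters of Tob2, Btg1 and Btg2 are printed because Tob2 and Btg1 were the genes with a rhythmic RNA level and Btg2 is the related gene without one. The sequences cover 250 bases before to 50 bases after the start site in RefSeq on GRCm38.p6, 5′ to 3′ on the strand of the gene, at chr15:81858277-81858576 (minus strand) for Tob2, chr10:96616751-96617050 (plus strand) for Btg1 and chr1:134079106-134079405 (minus strand) for Btg2. Of the 9 genes 8 had an entry, and Cpeb2 had none. Capitals mark matches, on either strand, to 4 motifs: the E-box CACGTG that CLOCK and ARNTL bind, the D-box in its forms TTATGTAA and TTACGTAA, the ROR and REV-ERB core AGGTCA, and the cAMP response half-site TGACG.
Tob2: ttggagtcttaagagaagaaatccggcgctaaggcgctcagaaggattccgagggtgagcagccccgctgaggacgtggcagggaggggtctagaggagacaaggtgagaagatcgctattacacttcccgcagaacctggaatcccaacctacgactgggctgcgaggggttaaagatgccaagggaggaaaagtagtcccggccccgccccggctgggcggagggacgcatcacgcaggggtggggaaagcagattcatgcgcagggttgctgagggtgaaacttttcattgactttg
Btg1: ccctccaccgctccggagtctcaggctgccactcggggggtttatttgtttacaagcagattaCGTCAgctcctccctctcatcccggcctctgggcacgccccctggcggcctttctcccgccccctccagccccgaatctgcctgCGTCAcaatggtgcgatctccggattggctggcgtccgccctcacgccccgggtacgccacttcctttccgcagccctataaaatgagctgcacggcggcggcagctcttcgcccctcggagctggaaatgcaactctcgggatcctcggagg
Btg2: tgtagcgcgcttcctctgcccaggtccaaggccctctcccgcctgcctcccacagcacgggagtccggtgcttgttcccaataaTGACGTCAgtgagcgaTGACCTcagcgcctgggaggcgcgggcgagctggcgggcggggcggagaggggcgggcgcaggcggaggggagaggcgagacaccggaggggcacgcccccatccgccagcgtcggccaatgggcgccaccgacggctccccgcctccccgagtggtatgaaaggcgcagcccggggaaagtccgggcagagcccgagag
None of the 8 promoters held an E-box (7.15% of all 32851 promoters did) or a D-box (1.06%). Btg1 and Btg2 each held 2 matches to the half-site TGACG, and in Btg2 they overlap as the palindrome TGACGTCA. Parn, Pan2 and Tob1 each held 1, and the share of all promoters with at least 1 was 20.8%. The core AGGTCA was matched in Btg2 alone, beside 16.3% of all promoters. No motif was found in this window of Tob2, Pan3 or Cpeb4, which speaks only of these letters in these 300 bases. For Tob2 the window lies within the gene span given above, so the bases before the start of that span were not searched. The Cpeb4 window lies wholly before the start of its gene model.

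**Figure D3:**
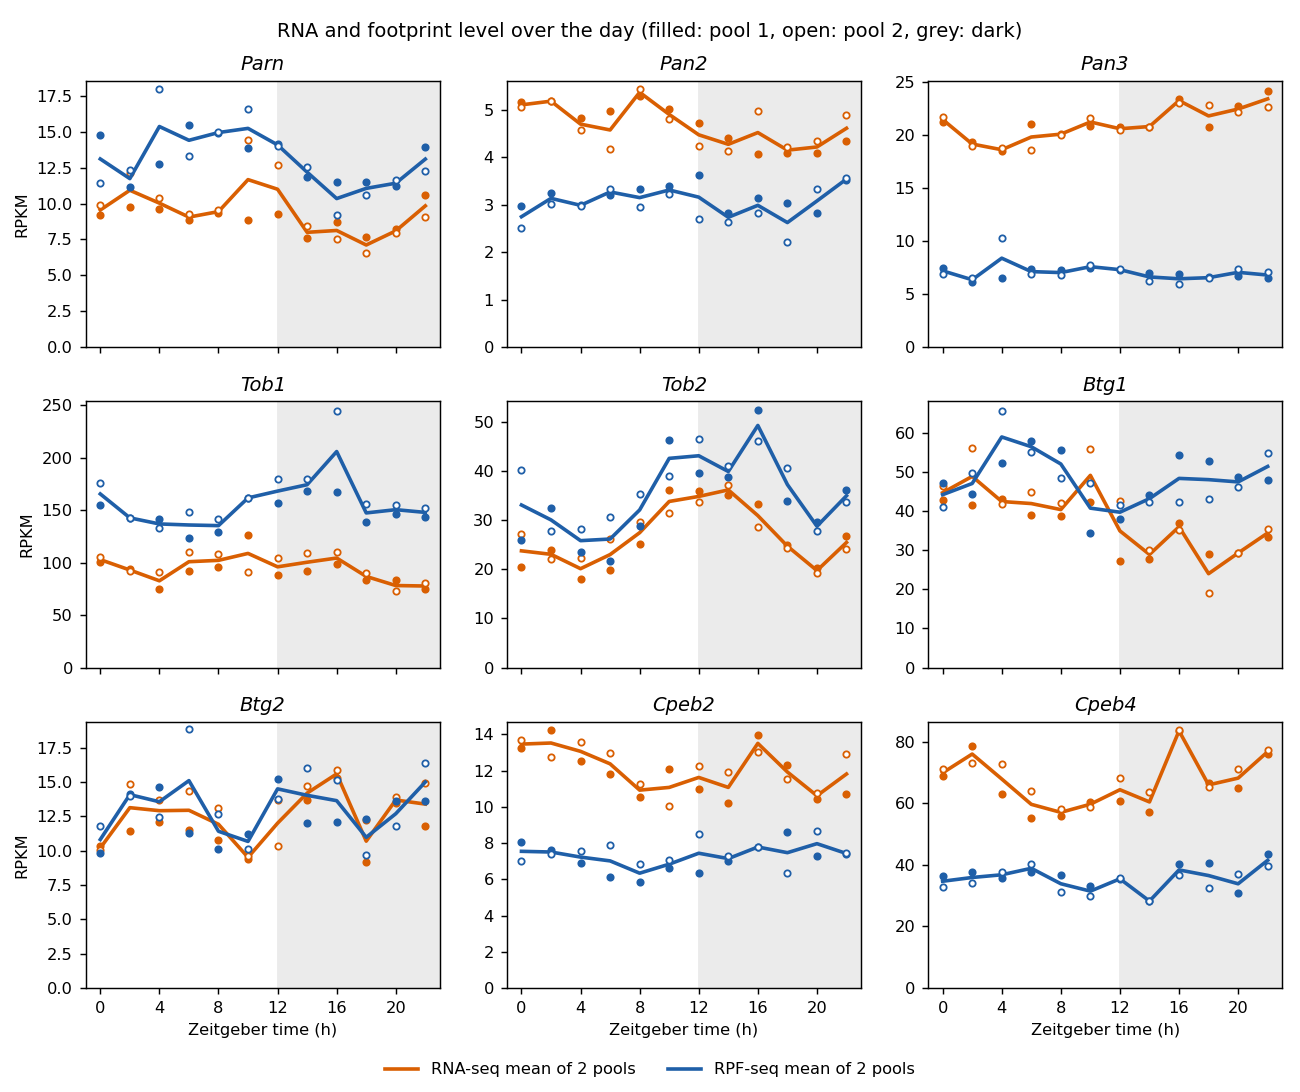
RNA-seq (orange) and RPF-seq (blue) RPKM of the 9 genes by Zeitgeber time, with both pools as points, their mean as a line and the dark phase in grey. Tob2 rises in both assays from ZT06 (23 RPKM RNA, 26.1 RPKM footprints) to ZT12 (34.8 and 43.1 RPKM), and the Btg1 timepoint means from ZT14 to ZT22 are 24.0 to 36.0 RPKM in RNA-seq and 43.2 to 51.4 RPKM in RPF-seq.

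Parn, the poly(A)-specific ribonuclease, had a light-phase component in both assays that stayed under 1.5-fold. Its RNA ranged from 8.85 to 14.4 RPKM in the light (median 9.59) and from 6.59 to 12.7 RPKM in the dark (median 8.32), with a fitted fold of 1.3 (log2 difference 0.37 ± 0.12 SE, FDR = 0.035) and a peak at ZT5.8. After quantile normalisation the RNA component was 1.23-fold and did not pass (FDR = 0.104). The footprints ranged from 11.1 to 18 RPKM in the light (median 14.3) and from 9.17 to 14.2 RPKM in the dark (median 11.7), with a fold of 1.35 (log2 difference 0.43 ± 0.09 SE, FDR = 0.0037) and a peak at ZT6.8. The highest and the lowest footprint value came from ZT04 pool 2 and ZT16 pool 2, the libraries that stood apart, and without them the fold was 1.27 (FDR = 0.00576). The footprint peak came 0.983 ± 1.48 h after that of the RNA, a gap smaller than its error, and 1.93 h after it without these libraries. With a 12-h term the gap was -1.8 h. The 2 RNA pools at ZT10 read 8.89 and 14.4 RPKM, the widest gap between pools for this gene. TE showed no 24-h component (fold 1.08, upper 95% bound 1.28, FDR = 0.74). The adipocyte markers peaked within 3 h of both Parn peaks, and their part was not tested.

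The RNA of both subunits of the PAN2-PAN3 deadenylase had a small 24-h component. Pan2 RNA ranged from 4.16 to 5.44 RPKM in the light (median 5.03) and from 4.07 to 4.96 RPKM in the dark (median 4.28), with a fold of 1.17 (log2 difference 0.23 ± 0.08 SE, FDR = 0.043) and a peak at ZT4.8. This component did not pass after quantile normalisation (1.10-fold, FDR = 0.29), and without replicate 1 it was 1.11-fold. The joint test of the 24-h and 12-h terms did not pass either (FDR = 0.0857). Pan3 RNA had a fold of the same size, 1.17 (log2 difference 0.23 ± 0.05 SE, FDR = 0.0033), but peaked at ZT18, with 18.5 to 21.7 RPKM in the light (median 20.1) and 20.5 to 24.2 RPKM in the dark (median 22.4). The difference between the 2 genes in the time of the RNA peak was not tested. Pan3 RNA was the steadiest between pools, with a median absolute log2 difference of 0.03. Neither gene had a 24-h component at FDR under 0.05 in its footprints (Pan2 fold 1.10, FDR = 0.55, and Pan3 fold 1.11, FDR = 0.36).

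The TE of Pan3 rose in the light and fell in the dark, opposite to its RNA, by 1.3-fold (log2 difference 0.38 ± 0.10 SE, FDR = 0.025) with a peak at ZT6.1. TE is footprints divided by this RNA, so the opposite timing of TE and RNA is not independent. The fitted footprint curve, which missed the test, peaked at ZT6.3 (log2 difference 0.15 ± 0.09 SE). The part of the footprints in the TE component was not tested. Light-phase pools ranged from 0.317 to 0.549 (median 0.352) and dark-phase pools from 0.258 to 0.360 (median 0.306). The highest value, 0.549, came from ZT04 pool 2, which stood apart as a library and gave 10.3 RPKM in footprints against 6.49 RPKM in its sister pool. Without this library and ZT16 pool 2 the TE fold was 1.20 and still passed (FDR = 0.0238). It did not pass after quantile normalisation (1.27-fold, FDR = 0.0514) or with a 12-h term in the fit (1.31-fold, FDR = 0.0945). Pan2 showed no 24-h component in TE (fold 1.07, FDR = 0.75).

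The CPEB genes, which bind the cytoplasmic polyadenylation element, stayed under 1.5-fold in both assays. Cpeb4 RNA ranged from 55.3 to 78.7 RPKM in the light (median 63.5) and from 57.0 to 83.6 RPKM in the dark (median 67.4). Its 24-h component was 1.25-fold (log2 difference 0.32 ± 0.08 SE, FDR = 0.0064) with a peak at ZT21.1, and the test over the 12 timepoints passed as well (FDR = 0.0036). The profile had a sharp maximum at ZT16, with 83.3 and 83.6 RPKM, between 57.0 and 63.7 RPKM at ZT14 and 66.7 and 65.2 RPKM at ZT18, and ZT16 was also the timepoint of the highest blood marker RNA. Cpeb4 footprints, with 28.1 to 43.4 RPKM (median 36.2), had a fold of 1.14 that did not pass (FDR = 0.21), and were lowest at ZT14, with 28.4 and 28.1 RPKM. Cpeb2 RNA ran from 10.1 to 14.3 RPKM (median 12.2) with a fold of 1.13 (upper 95% bound 1.26, FDR = 0.20). For this RNA the joint test of the 24-h and 12-h terms passed (1.28-fold, FDR = 0.029). Cpeb2 footprints ran from 5.82 to 8.66 RPKM (median 7.34) with a fold of 1.14 (upper 95% bound 1.28, FDR = 0.18). At ZT16, where Cpeb4 RNA was highest, Cpeb2 RNA read 14 and 13 RPKM, next to 13.5 RPKM as the mean of ZT02, its highest timepoint. The TE of both genes had no 24-h component at FDR under 0.05 (Cpeb4 1.17-fold, FDR = 0.19, and Cpeb2 1.16-fold, FDR = 0.20).

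**Figure D4:**
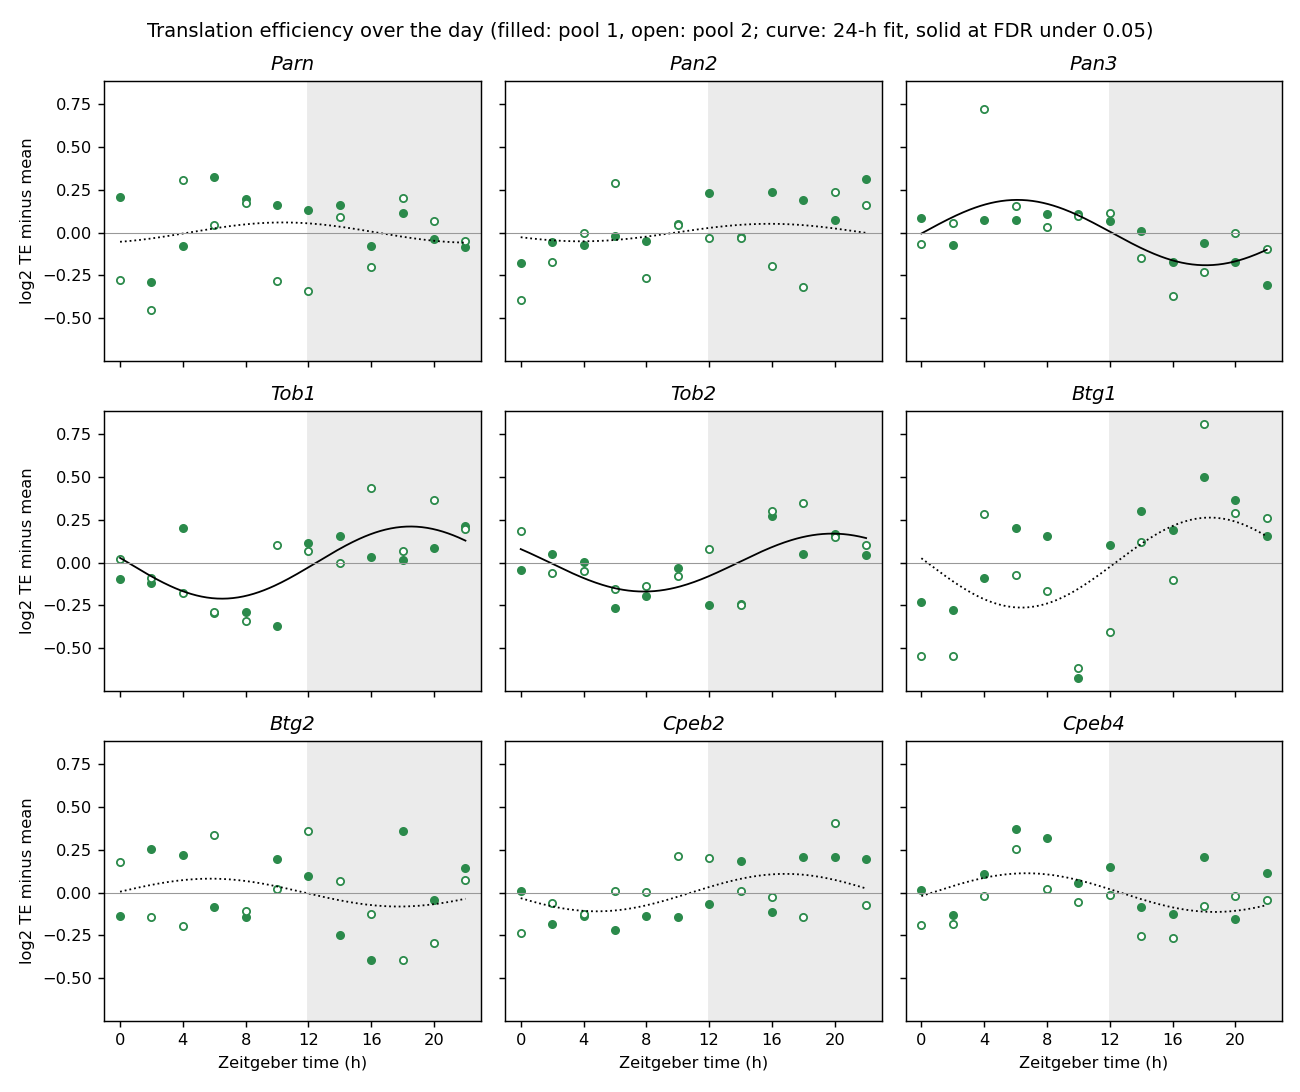
Log2 TE of each gene in each pool minus its mean over 24 pools, by Zeitgeber time, with the fitted 24-h curve solid where the FDR was under 0.05. The solid curves of Tob1 and Tob2 peak in the dark phase (ZT18.5 and ZT19.8) and that of Pan3 in the light phase (ZT6.1), and Btg1 pools reach furthest from their mean at ZT10 and ZT18.

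Other genes of poly(A) tail metabolism were read from the same fits, in 6 lists with 63 genes, of which 57 were tested. In RNA-seq 5 of 57 were called rhythmic (10.2% of all genes), in RPF-seq 2 of 57 (7.58%), and in TE 18 of 57 (17.1% of all genes). The 5 genes called in RNA-seq all peaked in the light phase, where 63.7% of all RNA calls peaked. None of 12 CCR4-NOT genes was called in RNA-seq or RPF-seq, although the RNA of 9 had a 24-h component at FDR under 0.05 of smaller size (48.6% of all genes). Of 11 genes that recruit deadenylases, 3 had such a component in RNA-seq, beside the same 48.6% of all genes, and none was called in either assay. Among 4 other poly(A) nucleases and relatives of Noct, Angel1 was called in both assays, with a 1.53-fold RNA rhythm peaking at ZT5.5 and a 1.75-fold footprint rhythm peaking at ZT6.8. Among 3 tested relatives of the BTG/Tob and CPEB genes, Cpeb3 RNA changed by 1.98-fold (peak ZT9.5), and Cpeb1 footprints by 1.53-fold (peak ZT13.2). Without the 2 libraries that stood apart the footprints of Angel1 were still called and those of Cpeb1 were not. Among 17 genes that bind or extend the tail, the poly(A)-binding proteins Pabpc1 (1.51-fold, peak ZT5.9) and Pabpn1 (1.57-fold, peak ZT6.9) were called in RNA-seq. Of 10 decapping and 5′ decay genes, the decapping enhancer Edc3 was called in RNA-seq (1.5-fold, peak ZT6.7). With a pseudocount of 1 the RNA of Angel1, Edc3 and Pabpn1 and the footprints of Cpeb1 were not called. RNA calls over all tested genes then fell from 1210 to 781. Quantile normalisation also lost the RNA calls of Angel1, Edc3 and Pabpn1, and it gained that of Cnot4.

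The 18 TE calls of these lists fell into the light phase for 8 genes and into the dark phase for 10, beside 52.7% of calls in the light phase over all genes. Without the 2 libraries that stood apart 15 of the 18 were still called, without Cnot11, Eif4enif1 and Tent4b. With either series of pools alone, which holds fewer samples, fewer genes passed, here and over all tested genes. TE peaked in the dark for the poly(A)-binding proteins Pabpc1 (1.83-fold, ZT16.4), Pabpc4 (1.52-fold, ZT18.2) and Pabpn1 (1.88-fold, ZT20.8), for Cpsf1 (1.21-fold, ZT18.9), Tnks1bp1 (1.32-fold, ZT19.9), Khsrp (1.34-fold, ZT19.5), Tnrc6c (1.26-fold, ZT22.8), Edc3 (1.96-fold, ZT18.2), Cpeb1 (1.47-fold, ZT15.0) and Cpeb3 (1.49-fold, ZT20.6). It peaked in the light for the regulators of poly(A)-binding protein Paip1 (1.37-fold, ZT8.4) and Paip2 (1.36-fold, ZT7.7), for the nucleotidyltransferases Tut4 (1.33-fold, ZT9.5), Tut7 (1.26-fold, ZT8.3) and Tent4b (1.23-fold, ZT7.7), and for Cnot11 (1.22-fold, ZT5.8), Cnot4 (1.34-fold, ZT7.0) and Eif4enif1 (1.27-fold, ZT7.3). The poly(A)-binding proteins thus had their TE maxima in the same phase as Tob1 and Tob2, and the Paip genes in the same phase as Pan3, a match in time that was not tested. A TE value shares its RNA value with the RNA profile, so an error in the RNA moves the TE the other way.

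The RNA profiles most like those of the 2 genes called in RNA-seq were sought among all tested genes by the Pearson correlation of mean log2 profiles over the 12 timepoints, as a description. For Tob2 they were the clock gene Per1 (r = 0.953, RNA peak ZT12.3, 4.21-fold), Sh3bgrl3 (r = 0.928, peak ZT13.2, 1.47-fold) and Porcn (r = 0.925, peak ZT11.8, 1.69-fold). For Btg1 they were Arhgef7 (r = 0.966, peak ZT5.2, 1.62-fold), Hmbox1 (r = 0.955, peak ZT4.9, 1.21-fold) and Grb2 (r = 0.952, peak ZT5.0, 1.80-fold). As time references in RNA-seq, Arntl peaked at ZT22.5, Nr1d1 at ZT7.5, Dbp at ZT10.5 and Per2 at ZT14.7, so that the Tob2 RNA peak at ZT12.7 lay between those of Dbp and Per2, and the Btg1 peak at ZT5.1 before that of Nr1d1. In footprints Per1 peaked at ZT12.9 and Per2 at ZT14.8, and Tob2 at ZT14.6.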

How the data were processed

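Per the labels and the study's methods, the authors trimmed reads with cutadapt, mapped them with Bowtie2 2.2.1 and TopHat2 2.0.11 (GRCm38.p2), built transcript models with Cufflinks 2.2.1, counted reads on coding sequences, normalised libraries by upper quantiles with edgeR and deposited RPKM values. This scaling hides changes in total RNA or footprints per cell. RPKM are not counts, so no count model was run. All genes whose median reached 0.5 RPKM in RNA-seq and in RPF-seq entered the fits, made in R 4.3.3 by limma 3.58.1 on log2(RPKM + 0.1): a moderated F test of 24-h cosine and sine terms with a variance trend, and Benjamini-Hochberg adjustment over all tested genes (FDR). TE was fitted as the log2 ratio within a pool, which tests whether RNA and footprint rhythms differ. Since a fitted fold cannot fall below 1, only upper bounds (normal, 95%) are given for folds that missed the test, and the SE of a peak gap treats the assays as independent. The fits were also run on simulated data with independent noise, which hold no effects shared by a library and so do not measure false calls here. Python 3.11.15 and scipy 1.17.1 ran the permutation tests (100000 resamples). Reads behind the values, all whole within a tolerance of 0.02, served only to describe depth. Gene models are GENCODE vM21. Alternatives were pseudocounts of 1 and 0.01, other RPKM minimums, quantile normalisation and a 12-h term. Others were a replicate block, no variance trend and each replicate left out. The fit without the RPF-seq libraries that stood apart was added after seeing the data. With the 12-h term, the test covered the 24-h and 12-h terms together, and folds and peak times were read from the combined curve.

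The genes and lists were chosen with earlier results of these data known. Named were all 9 genes analysed, every gene of the 6 other lists called in either assay or in TE, and for genes called in RNA-seq the 3 most similar RNA profiles. Groups are the timepoints of the labels, and the units of all tests are pools. In the tests of neighbouring levels, the spread between pools includes the change over the day. Those tests therefore show only whether an order holds across the day. In the cosine fits, the residual spread also holds any departure of the timepoints from the fitted curve. The test with timepoints as a factor uses the spread between pools of the same timepoint.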

Additional observations from a re-analysis of the deposited data

Results flagged for a closer look

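The RNA and footprint profiles of 3 genes differed over the day by the test of the difference itself, the 24-h term in TE. The TE fold was 1.3 for Pan3 (peak at ZT6.1), 1.34 for Tob1 (peak at ZT18.5) and 1.26 for Tob2 (peak at ZT19.8). With either series of pools alone the folds were 1.44 and 1.22 for Pan3, 1.44 and 1.25 for Tob1 and 1.29 and 1.24 for Tob2, and none passed (FDRs from 0.177 to 0.333). In these fits, which hold fewer samples, 0 and 2 of 11863 tested genes passed, so that a call lost there says nothing on its stability.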

How the results depend on the processing

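Values of all 9 genes kept their side of the threshold under pseudocounts of 1 and 0.01 and both other RPKM minimums. The fit with no variance trend changed only the number of genes with a 24-h RNA component. It went from 7 to 6, without Tob1 (FDR = 0.0571). The counts of neighbouring levels that differ stayed at 7 and 5 in every alternative run for them. Quantile normalisation left 5 RNA components and 2 of the 3 TE calls, without Pan3 (1.27-fold). Fits with 1 series of pools left out hold 1 pool at each timepoint. In them fewer RNA, footprint and TE components passed, among these genes and over all tested genes. Over all tested genes the TE calls fell from 2028 to 0 and 2 in these fits, which hold fewer samples. Btg1 in RNA-seq (1.46-fold) lost its call without replicate 2, and Tob2 in RPF-seq (1.47-fold) without replicate 1. Replicate numbers did not pair the pools: replicate differences at different timepoints correlated by a mean of 0.0291 for RNA libraries and 0.0197 for footprint libraries (66 pairs each, from -0.204 to 0.48). The replicate block left the counts of rhythmic genes at 2, 1 and 3 and raised those that differ between timepoints to 5 in RNA-seq (with Btg2) and 2 in RPF-seq (with Tob1). With a 12-h term added, the TE of Pan3 (1.31-fold, FDR = 0.0945) and Tob2 (1.29-fold, FDR = 0.0648) was no longer called and that of Btg1 was (1.89-fold, FDR = 0.0157), and the gap between RNA and footprint peaks became -1.8 h for Parn, 1.9 h for Tob1 and 0.8 h for Tob2. The causes of these changes were not tested. Btg2 had the fewest reads, 57 in its lowest RNA library.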
